A study of Mus musculus with 9 samples.

Results

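Chemokines and chemokine receptors were read from RNA sequencing of colon tissue of C57BL/6 mice. The family was taken by gene symbol: rows named Ccl, Cxcl, Cx3cl or Xcl with a number counted as ligands, and rows named Ccr, Cxcr, Cx3cr, Xcr or Ackr with a number as receptors. This gave 60 of the 36256 genes in the deposited table, 38 ligands and 22 receptors. There were 9 mice in 3 groups. The LRWE group (3 mice) was labelled as induced with dextran sulfate sodium (DSS), which damages the colon lining and causes colitis, with modelling for 9 days, and the design text gives this group a Linderae Radix extract at 2.0 g/kg. The MC group (3 mice) carried the same DSS label and 9 days of modelling with no extract. The NC group (3 mice) was the control. Age, sex, the length of extract dosing and the segment of colon taken are not given in the sources used here. Per its title, the study asked about this extract in experimental colitis.

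Chemokines are small secreted proteins that attract leukocytes through receptors that couple to inhibitory G proteins. Inflammatory chemokines such as Cxcl1, Cxcl2 and Ccl2 are induced in injured tissue and draw in neutrophils and monocytes, while homeostatic ones such as Cxcl12, Cxcl13, Ccl21 and Ccl28 place lymphocytes in lymphoid follicles, lymphatic vessels and mucosa. The atypical receptors, Ackr1 to Ackr4, bind chemokines without this G protein signal and carry or remove them.

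The promoters of Cxcl1, Cxcl2, Cxcl3 and Cxcl10, which are compared mouse by mouse in the results that follow, are shown. They were chosen as the CXC ligands that held letters of the site bound by NF-kB, the transcription factor that inflammatory cytokines activate. Windows of 300 bases around the start of transcription were taken from RefSeq (mouse build GRCm38.p6), and 46 of the 60 members had one. The motif searched on both strands was GGANNTTCC, 9 letters of a common NF-kB site, in which N is any base. It was found in 7 of the 46 members with a window (15.2%) and in 4.86% of all 27025 genes with one. The 7 members were Ccl1, Ccl12, Ccr3, Cxcl1, Cxcl2, Cxcl3 and Cxcl10. Of the other inflammatory CXC ligands, Cxcl9 had a window without the motif, and Cxcl5 and Cxcl11 had no window. A match describes these letters and is not evidence of binding. The capitals mark the match in each window, written 5′ to 3′ on the gene's strand.
Cxcl1, chr5:90891150-90891208, plus strand: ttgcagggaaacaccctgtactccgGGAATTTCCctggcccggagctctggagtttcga
Cxcl2, chr5:90903778-90903836, plus strand: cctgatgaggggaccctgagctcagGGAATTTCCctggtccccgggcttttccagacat
Cxcl3, chr5:90786004-90786062, plus strand: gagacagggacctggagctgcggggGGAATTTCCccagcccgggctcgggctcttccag
Cxcl10, chr5:92349014-92349072, minus strand: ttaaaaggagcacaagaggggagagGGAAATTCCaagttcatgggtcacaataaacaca
Cxcl1, Cxcl2 and Cxcl3 hold the same 9 letters, at positions -70, -96 and -72 from the start of transcription. Of the other motifs searched on both strands, TTCNNNGAA (STAT) was found in 3 members (6.52%) and in 9.55% of all genes with a window, and GAAANNGAA (part of an interferon response element) in 8 members (17.4%) and in 9.76% of all genes.

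Library totals ran between 59042063 and 65042857 counts, and the members took between 0.0263% and 0.0801% of them, so many members rest on few counts. Colon epithelium markers were present in every library (CPM is the count relative to the TMM-normalized library size). Their sum was 18280, 37452 and 26219 CPM in LRWE and 15547, 8446 and 17697 CPM in MC. In NC it was 15991, 16071 and 12511 CPM. Every LRWE mouse thus lay above every other mouse, and MC 2 was the lowest library. The part of this epithelial share in the member values below was not tested. Several libraries stood apart. LRWE 2 lay farthest on the first principal component of all genes (-220, against -74.6 to -5.57 in the other LRWE mice, 8.39 to 96.0 in MC and 49.7 to 74.3 in NC). Markers of position along the colon also differed between the groups. The sum of 5 distal colon genes was 5.50, 3.51 and 4.53 CPM in LRWE, 12.5, 133 and 21.3 CPM in MC and 1530, 1406 and 1115 CPM in NC. The sum of 5 proximal colon genes was 241, 504 and 481 CPM in LRWE, 377, 88.2 and 181 CPM in MC and 24.9, 26.7 and 27.6 CPM in NC. The distal sum differed without overlap between every pair of groups, so in each comparison below a change with treatment and a difference in the sampled position cannot be told apart. In whole tissue, fewer cells of a type and less RNA per cell cannot be told apart either.

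Levels between genes are compared in FPKM, which is scaled to transcript length. The most abundant ligand was Ccl21a, a lymphatic and lymphoid ligand of Ccr7, with a mean of 64.3 FPKM over the 9 libraries. It was followed by Ccl6 (25.2 FPKM), a ligand of Ccr1 made by myeloid and epithelial cells, Cx3cl1 (21.2 FPKM), a membrane-bound ligand for Cx3cr1, and Ccl28 (13.9 FPKM), an epithelial ligand that draws antibody-secreting cells. Cxcl13, which organizes B cell follicles, had 11.3 FPKM, Ccl21b 11.3, Ccl21d 9.62 and Cxcl16, the ligand of Cxcr6, 6.20 FPKM. The receptors were lower. Their highest means were those of Ackr1 (4.09 FPKM), the atypical receptor of venules, Ackr4 (2.63 FPKM), which removes Ccl19, Ccl21 and Ccl25, Ccr1 (2.16 FPKM), Cxcr4 (1.86 FPKM), Ackr3 (1.66 FPKM) and Cx3cr1 (0.788 FPKM). All receptors summed to 15.2, 4.77 and 6.16 FPKM in LRWE, 17.4, 34.9 and 17.6 FPKM in MC and 16.7, 16.5 and 30.9 FPKM in NC. All ligands summed to 166, 104 and 99.8 FPKM in LRWE, 204, 426 and 153 FPKM in MC and 263, 231 and 298 FPKM in NC. Both sums were lower in LRWE 2 and LRWE 3 than in every MC and NC library, and both were highest in MC 2.

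**Figure D1:**
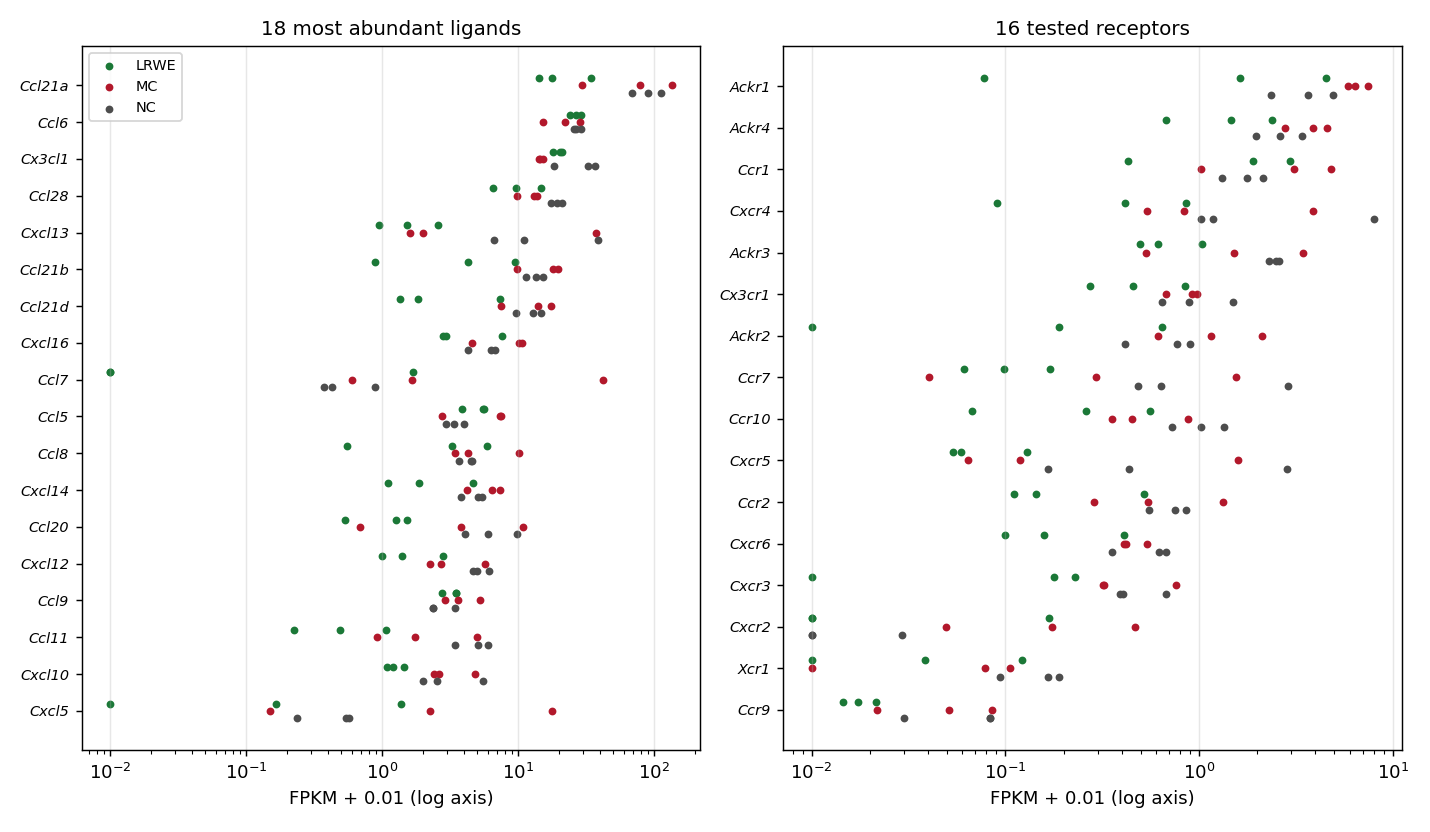
Level of the 18 most abundant ligands (left) and 16 tested receptors (right) in FPKM + 0.01 on a log axis, 1 point per library, for LRWE (green, upper row of each gene), MC (red) and NC (grey). Ccl21a leads the ligands with a mean of 64.3 FPKM, and its 3 LRWE points lie left of every NC point, while MC 3 lies among them.

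Of the 60 members, 50 (33 ligands and 17 receptors) passed the filter on low counts and were tested with edgeR. For MC against NC, 1 member was called at an adjusted p under 0.05, where 6.37% of all 21767 tested genes were. It was lower in MC, as were 3.53% of all tested genes, and none was called higher, against 2.84%. At an unadjusted p under 0.05 there were 5 of the 50 members, against 24.3% of all tested genes. All 3 MC mice lay above all 3 NC mice in 3 of 50 members (Cxcl2, Cxcr2 and Ackr1), against 19.5% of all tested genes. They lay below them in 5 of 50 (Cx3cl1, Ccl28, Ccl6, Ccl17 and Ccr10), against 20.1%. The fits divided almost evenly, with 26 of 50 above zero, as they did over all tested genes (10816 of 21767).

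The called member was Cx3cl1 (ENSMUSG00000031778, chromosome 8, 95498637 to 95509055, plus strand, in the deposited table's coordinates, whose build is not named), the membrane-bound fractalkine made by epithelium, endothelium and neurons. It had 57.1, 50.3 and 64.7 CPM in MC, against 147, 152 and 77.4 CPM in NC, and the groups did not overlap, though NC 3 lay far closer to the MC mice than the other NC mice did. The means were 57.4 ± 7.19 CPM in MC and 126 ± 41.7 CPM in NC (SD, n = 3 each), a log2 fold change of -1.13 ± 0.26 (SE), or 2.19-fold lower, with an adjusted p of 0.0355 (edgeR). The call was lost on leaving out LRWE 3 (adjusted p 0.0584, edgeR), MC 1 (0.107), MC 2 (0.0876), MC 3 (0.0831), NC 1 (0.137) or NC 2 (0.130), with a log2 fold change between -1.22 and -0.97 in those fits. In LRWE mice it had 81.9, 103 and 78.4 CPM, above every MC mouse. The LRWE against MC log2 fold change was 0.61 ± 0.25 with an adjusted p of 0.194 (edgeR). Its receptor Cx3cr1, carried by macrophages, had 3.87, 1.51 and 2.26 CPM in LRWE, 3.04, 3.67 and 4.73 CPM in MC and 3.31, 4.15 and 7.25 CPM in NC, with overlap between all groups.

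Of the neutrophil-attracting ligands of Cxcr2, Cxcl2 was higher in every MC mouse than in every NC mouse, while Cxcl1 and Cxcl5 were high mainly in MC 2. Cxcl2 had 0.891, 6.79 and 5.48 CPM in MC, against 0.0696, 0 and 0.0793 CPM in NC. The 3 NC mice together held 9 counts. The log2 fold change was 6.42 ± 2.07 with an adjusted p of 0.0979 (edgeR), so it missed the threshold, and it passed on leaving out LRWE 1 (adjusted p 0.0386). In the LRWE group Cxcl2 had 5.40, 0.240 and 0 CPM, high in 1 mouse and within or near the NC range in the other two.

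Cxcl5, an epithelial ligand of the same receptor, had 2.64, 0 and 0.325 CPM in LRWE, 0.276, 29.7 and 4.55 CPM in MC and 1.22, 1.06 and 0.476 CPM in NC. Cxcl1 had 2.83, 0.443 and 0.211 CPM in LRWE, 0.0461, 10.3 and 0.764 CPM in MC and 1.55, 1.03 and 2.25 CPM in NC. Both were led by MC 2, and MC 1 lay below every NC mouse in both. The MC against NC log2 fold change was 3.65 ± 1.73 for Cxcl5 (adjusted p 0.237, edgeR) and 1.20 ± 1.47 for Cxcl1 (adjusted p 0.678, edgeR). Without MC 2 the Cxcl5 value was 1.40 and the Cxcl1 value turned to -1.98. Cxcl3, which shares 5.84% of the 50-base stretches of Cxcl2 with it, had 0.813, 0 and 0 CPM in LRWE, 0, 1.25 and 0.598 CPM in MC and 0.139, 0 and 0 CPM in NC. The receptor Cxcr2, on neutrophils, had 0.504, 0 and 0 CPM in LRWE, 0.123, 0.459 and 1.53 CPM in MC and 0.0696, 0 and 0 CPM in NC. Its highest MC library was MC 3, not MC 2, and the log2 fold change was 4.84 ± 2.27 (adjusted p 0.231, edgeR). Cxcr1, the companion receptor, had 0.184 CPM in MC 1, 0.0769 CPM in NC 2 and 0 elsewhere, 17 counts in all, and was not tested.

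The monocyte ligands showed the same mouse. Ccl7 had 1.37, 0 and 0 CPM in LRWE, 0.492, 30.1 and 1.43 CPM in MC and 0.348, 0.754 and 0.365 CPM in NC. Ccl2, which draws monocytes through Ccr2, had 0.211, 0 and 0.374 CPM in LRWE, 0.384, 13.4 and 1.68 CPM in MC and 0.888, 0.384 and 1.09 CPM in NC. MC 2 exceeded the mean of MC 1 and MC 3 by 31.4 times for Ccl7, 13.0 times for Ccl2, 25.3 times for Cxcl1 and 12.3 times for Cxcl5. The MC against NC log2 fold changes were 4.44 ± 1.99 for Ccl7 (adjusted p 0.211, edgeR) and 2.71 ± 1.35 for Ccl2 (adjusted p 0.260, edgeR). Without MC 2 they were 0.98 and 0.39.

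Summed over Cxcl1, Cxcl2, Cxcl3, Cxcl5, Ccl2 and Ccl7, the level was 13.3, 0.683 and 0.910 CPM in LRWE, 2.09, 91.6 and 14.5 CPM in MC and 4.21, 3.23 and 4.27 CPM in NC. The LRWE and MC groups therefore each held a mouse far above the others, LRWE 1 and MC 2, and each also held at least 1 mouse below the whole NC range. Neutrophil markers were also highest in LRWE 1 and MC 2 of their groups. All 10 neutrophil genes of the list summed to 77.1, 21.7 and 16.3 CPM in LRWE and 22.3, 268 and 71.7 CPM in MC. In NC this sum was 228, 219 and 143 CPM, most of it Ly6g (140 to 225 CPM). With Ly6g left out, a choice made after these values were seen, 9 genes summed to 17.7, 5.87 and 2.19 CPM in LRWE. The sum of the 9 was 5.82, 34.1 and 16.3 CPM in MC and 3.73, 1.26 and 3.49 CPM in NC. The part of neutrophil number in these ligand levels was not tested. Among the cytokines that induce these ligands, Tnf had 10.6, 5.84 and 1.09 CPM in LRWE, 10.6, 15.3 and 8.01 CPM in MC and 1.88, 1.75 and 3.59 CPM in NC. Il1b had 8.77, 1.81 and 0 CPM in LRWE, 1.58, 8.67 and 7.74 CPM in MC and 0.522, 0.646 and 0.809 CPM in NC. Both were higher in every MC mouse than in every NC mouse, and the adjusted p was 0.0926 for Tnf and 0.228 for Il1b (edgeR). None of the 8 cytokines of that list that could be tested was called in any comparison, and their median log2 fold change was 1.54 (LRWE over NC), -0.86 (LRWE over MC) and 2.12 (MC over NC). Over all tested genes these medians were -0.053, -0.032 and -0.0055.

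**Figure D2:**
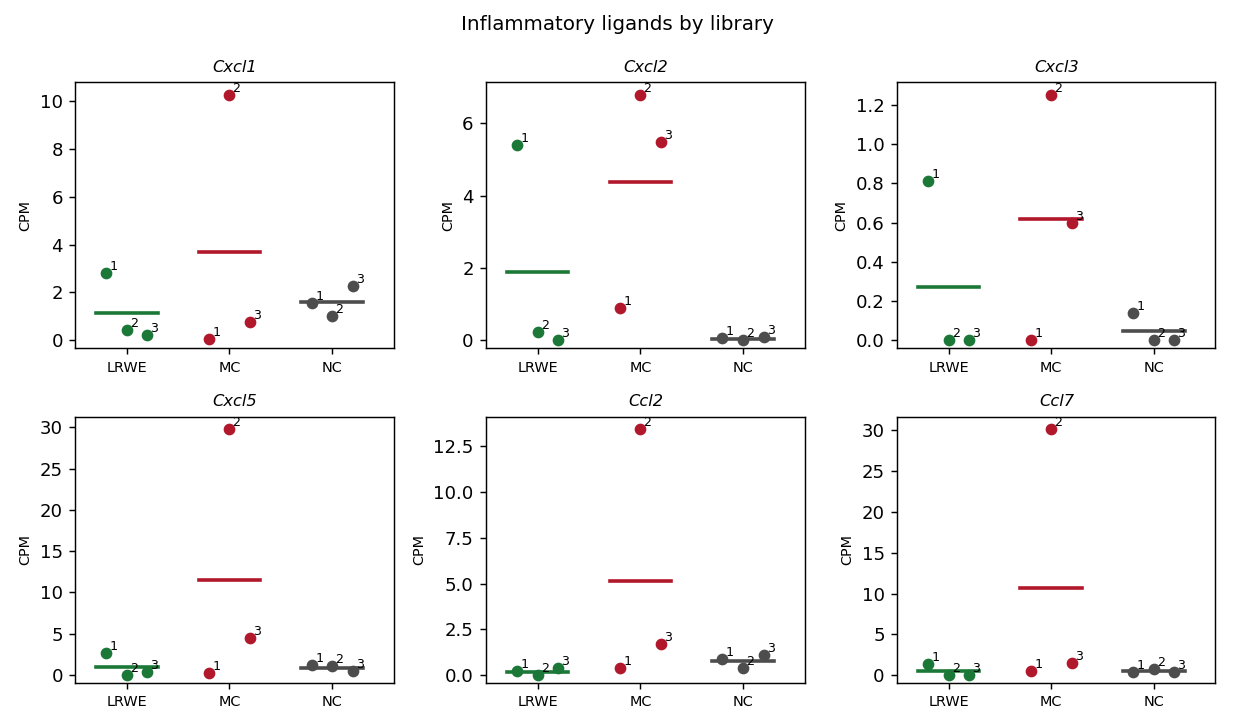
Level (CPM) of 6 inflammatory ligands in each library, with the replicate number beside each point and the group mean as a line, for LRWE (green), MC (red) and NC (grey). MC 2 is the highest point in all 6, with 30.1 CPM of Ccl7, and LRWE 1 is the highest LRWE point in all but Ccl2.

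The other inflammatory ligands were called in no comparison. Ccl5, made by T cells and natural killer cells, had 5.37, 6.82 and 4.11 CPM in LRWE, 7.17, 2.38 and 7.84 CPM in MC and 3.29, 3.40 and 4.17 CPM in NC. For this gene MC 2 was the lowest of the 9 libraries, unlike for the ligands above. Ccl4 had 2.00, 1.74 and 1.36 CPM in LRWE, 0.384, 1.49 and 0.365 CPM in MC and 0.748, 0.169 and 0.206 CPM in NC. The 3 LRWE mice lay above the 3 NC mice, with a log2 fold change of 2.18 ± 0.81 and an adjusted p of 0.124 (edgeR). Ccl3, a ligand of Ccr1, had 0.325, 2.36 and 0.422 CPM in LRWE, 0.230, 0.710 and 0.548 CPM in MC and 0.505, 0.354 and 0.127 CPM in NC, and the groups overlapped.

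Receptors of this group were low to moderate. Ccr1 had 8.57, 6.80 and 1.33 CPM in LRWE, 2.93, 12.2 and 9.53 CPM in MC and 4.30, 5.27 and 6.55 CPM in NC. Ccr2, the receptor of inflammatory monocytes, had 3.55, 1.16 and 0.763 CPM in LRWE, 1.92, 8.02 and 3.95 CPM in MC and 6.63, 3.89 and 5.47 CPM in NC. Both receptors were highest in MC 2 and overlapped between MC and NC. For Ccr2 the LRWE mice lay below the NC mice, with a log2 fold change of -1.55 ± 0.67 (adjusted p 0.178, edgeR). The sum of 10 monocyte and macrophage markers was 134, 83.6 and 69.4 CPM in LRWE, 93.0, 193 and 133 CPM in MC and 209, 194 and 223 CPM in NC. Of the 10, 3 were called lower in LRWE than in NC, where 3.97% of all tested genes were. The part of these cells in the Ccr2 values was not tested.

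The interferon-induced ligands of Cxcr3, the receptor of activated T cells, were on average lowest in the LRWE group. Cxcl10 had 2.77, 4.10 and 2.73 CPM in LRWE, 10.9, 5.29 and 5.93 CPM in MC and 14.3, 5.98 and 4.87 CPM in NC. All LRWE mice lay below all MC and NC mice, and the log2 fold change was -1.21 ± 0.47 against MC (adjusted p 0.183, edgeR) and -1.39 ± 0.47 against NC (adjusted p 0.0957, edgeR). Cxcl9 had 2.10, 1.92 and 1.33 CPM in LRWE, 5.28, 3.06 and 3.62 CPM in MC and 5.99, 1.81 and 1.32 CPM in NC. Cxcl11 had 0.195, 0 and 0.715 CPM in LRWE, 0.829, 0.167 and 1.26 CPM in MC and 0.940, 0.369 and 0.286 CPM in NC, with overlap throughout. Unlike the neutrophil ligands, none of the 3 was highest in MC 2. Cxcl10 and Cxcl11 overlap Art3 on the opposite strand, and the library type is not given, so reads of these genes and Art3 cannot be told apart. Cxcr3 itself had 0.390, 0 and 0.325 CPM in LRWE, 0.553, 1.17 and 0.598 CPM in MC and 0.766, 0.723 and 1.25 CPM in NC.

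Ccl28, the epithelial ligand introduced above, had 72.5, 59.2 and 34.9 CPM in LRWE, 47.6, 59.9 and 69.0 CPM in MC and 118, 98.9 and 91.4 CPM in NC. Every DSS mouse lay below every NC mouse, and the log2 fold change came to -0.80 ± 0.26 for MC against NC (adjusted p 0.101, edgeR) and -0.89 ± 0.26 for LRWE against NC (adjusted p 0.0650, edgeR). Between LRWE and MC the 95% interval of the log2 fold change was -0.67 to 0.51. Its receptor Ccr10, on antibody-secreting cells, had 0.455, 0.129 and 1.07 CPM in LRWE, 0.768, 1.35 and 0.664 CPM in MC and 1.44, 1.85 and 2.51 CPM in NC. Here too every DSS mouse lay below every NC mouse, with a log2 fold change of -1.80 ± 0.73 for LRWE against NC (adjusted p 0.152, edgeR). Ccr10 overlaps Cntnap1 on the opposite strand. The sum of 8 plasma cell markers was 374, 428 and 522 CPM in LRWE, 238, 412 and 333 CPM in MC and 994, 2046 and 2356 CPM in NC, and its part in these values was not tested.

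Ccl25, a ligand of Ccr9 best known from the small intestine, went the other way in LRWE mice. It had 8.80, 18.9 and 11.1 CPM in LRWE, 8.28, 5.93 and 7.26 CPM in MC and 7.19, 7.29 and 6.11 CPM in NC. All LRWE mice lay above all others, by a log2 fold change of 0.85 ± 0.30 against MC (adjusted p 0.171, edgeR) and 0.91 ± 0.31 against NC (adjusted p 0.0914, edgeR). Ccl25 overlaps Elavl1 on the opposite strand. Ccr9 had 0.0488, 0.111 and 0.146 CPM in LRWE, 0.123, 0.696 and 0.465 CPM in MC and 0.261, 0.815 and 0.825 CPM in NC, and its region overlaps several other genes.

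Ccl6 varied little, with 48.5, 54.2 and 57.7 CPM in LRWE, 40.0, 45.9 and 29.5 CPM in MC and 53.2, 55.0 and 52.0 CPM in NC. The MC mice lay below both other groups without overlap, with a log2 fold change of -0.47 ± 0.17 for MC against NC (adjusted p 0.129, edgeR) and 0.47 ± 0.17 for LRWE against MC (adjusted p 0.172, edgeR). Ccl6 overlaps E230016K23Rik on the opposite strand. Ccl27a had 5.03, 4.84 and 2.44 CPM in LRWE, 9.75, 6.08 and 8.01 CPM in MC and 6.48, 5.86 and 7.55 CPM in NC. For Ccl27a the LRWE mice lay below both other groups, with a log2 fold change of -0.95 ± 0.33 against MC (adjusted p 0.170, edgeR), and this gene overlaps Il11ra1 on the opposite strand.

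Ligands and receptors of lymphoid follicles were high in a pair of mice of different groups, NC 3 and MC 2. Cxcl13 had 1.81, 3.71 and 1.22 CPM in LRWE, 1.84, 38.4 and 2.51 CPM in MC and 8.77, 13.3 and 47.7 CPM in NC. Its receptor Cxcr5, on B cells, had 0.407, 0.185 and 0.195 CPM in LRWE, 0.369, 4.75 and 0.199 CPM in MC and 1.65, 0.554 and 10.3 CPM in NC. In both genes all LRWE mice lay below all NC mice, and MC 1 and MC 3 lay there too.

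Ccr7, which guides lymphocytes and dendritic cells to Ccl19 and Ccl21, had 0.325, 0.222 and 0.114 CPM in LRWE, 0.0614, 2.73 and 0.614 CPM in MC and 1.10, 1.31 and 6.17 CPM in NC. Cxcr4, the receptor of Cxcl12, had 1.59, 0.924 and 0.162 CPM in LRWE, 1.52, 6.32 and 1.05 CPM in MC and 2.12, 2.23 and 15.6 CPM in NC. Ccl20, made by the epithelium over follicles, had 2.20, 2.29 and 0.861 CPM in LRWE, 0.998, 13.7 and 5.83 CPM in MC and 9.90, 6.12 and 15.2 CPM in NC. For all 3, NC 3 was the highest library, MC 2 the next, and the LRWE mice lay below the NC mice. Ccl19 had 0.146, 0 and 0.0162 CPM in LRWE, 0.0768, 5.93 and 0.133 CPM in MC and 0, 0.384 and 1.38 CPM in NC, and was the one ligand of this set with MC 2 above NC 3. Ccl19 overlaps 4930578G10Rik on the opposite strand. Ccr6, the receptor of Ccl20, had 0.237 CPM in MC 2, 0.651 CPM in NC 3 and 0 in every other library, 58 counts in all, and was not tested.

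The sum of 10 B cell and follicle markers had the same extremes, with 8.26, 9.92 and 6.86 CPM in LRWE, 8.20, 125 and 10.9 CPM in MC and 30.7, 32.3 and 325 CPM in NC. Cr2, Fcer2a and Blk were at 0 in all 3 LRWE libraries. How many follicles each tissue piece held was not recorded in the labels, and its part in these values was not tested. The LRWE against NC log2 fold changes were -3.37 ± 1.22 for Cxcl13 (adjusted p 0.114, edgeR), -3.97 ± 1.44 for Cxcr5 (0.116), -3.69 ± 1.26 for Ccr7 (0.0978), -2.90 ± 1.12 for Cxcr4 (0.137) and -2.54 ± 0.83 for Ccl20 (0.0848). Without NC 3 they were -2.30 for Cxcl13, -2.07 for Cxcr5, -2.44 for Ccr7 and -1.29 for Cxcr4. For MC against NC the sign turned positive without NC 3 in Cxcl13 (0.37), Cxcr5 (0.68) and Cxcr4 (0.44), against -0.70, -1.23 and -1.17 over all mice.

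**Figure D3:**
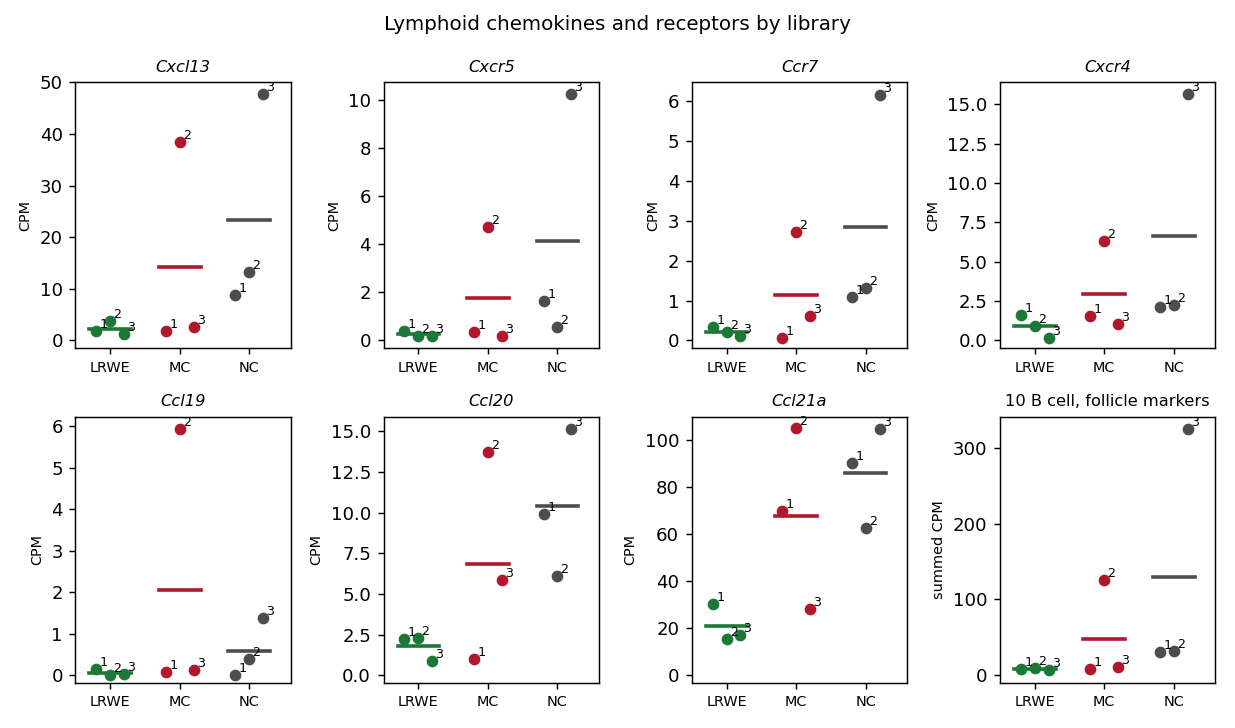
Level (CPM) of 7 lymphoid chemokines and receptors in each library and, at lower right, the summed level of 10 B cell and follicle markers, with replicate numbers and group means, for LRWE (green), MC (red) and NC (grey). MC 2 and NC 3 stand above the other mice in all panels but that of Ccl21a, where NC 1 and MC 1 are also high.

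For LRWE against NC, 3 of the 50 tested members were called, where 10.0% of all tested genes were. All were lower in LRWE, as 3.97% of all tested genes were, and none was higher, against 6.04%. At an unadjusted p under 0.05 there were 21 of the 50 members, against 26.9% of all tested genes. The 3 called members were Ccl21a, Ccl11 and Cxcl12, and 11 of 50 fits were above zero, against 10323 of 21767 over all tested genes. All 3 LRWE mice lay below all 3 NC mice in 21 of 50 members, against 4454 of 21767 tested genes (20.5%). They lay above them in 2 of 50, against 3622 of 21767 (16.6%).

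Ccl21a (ENSMUSG00000094686, chromosome 4, 42772860 to 42773993, minus strand) had 30.2, 15.5 and 17.1 CPM in LRWE, 69.5, 105 and 28.1 CPM in MC and 90.0, 62.3 and 105 CPM in NC. The means were 20.9 ± 8.08 CPM in LRWE and 85.7 ± 21.5 CPM in NC (SD, n = 3 each), a log2 fold change of -2.03 ± 0.46 and an adjusted p of 0.0291 (edgeR). No LRWE mouse reached the NC range, while MC 3 was close to the LRWE mice and MC 2 was as high as NC 3. The call was lost without LRWE 2 (adjusted p 0.0762, edgeR), LRWE 3 (0.0970), NC 1 (0.0923), NC 2 (0.0648) or NC 3 (0.0998), with log2 fold changes between -2.26 and -1.86. Ccl21a overlaps 4930578G10Rik on the opposite strand, and the library type is not given.

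Ccl21a has close copies whose reads cannot be told apart with confidence. Ccl21d had 6.52, 2.01 and 1.32 CPM in LRWE, 12.3, 13.6 and 7.11 CPM in MC and 12.9, 8.73 and 13.9 CPM in NC. Ccl21b had 8.39, 0.979 and 4.09 CPM in LRWE, 15.8, 15.2 and 9.18 CPM in MC and 13.6, 10.5 and 14.2 CPM in NC. Both lay lower in all LRWE mice than in all other mice. The LRWE against NC log2 fold change was -1.85 ± 0.57 for Ccl21d (adjusted p 0.0722, edgeR) and -1.51 ± 0.61 for Ccl21b (adjusted p 0.154, edgeR). Ccl21d overlaps Gm13307 on the opposite strand. Of the 50-base stretches of Ccl21b transcripts, 71.7% also occur in Ccl21a transcripts, and 30.8% of those of Ccl21a occur in Ccl21b. The promoters of Ccl21a and Ccl21d are identical at 297 of 299 aligned bases, and a stretch with 1 of the 2 differing bases is shown, that base in capitals (RefSeq, GRCm38.p6).
Ccl21a, chr4:42774071-42774130, minus strand: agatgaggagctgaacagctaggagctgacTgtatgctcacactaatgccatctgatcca
Ccl21d, chr4:41903473-41903532, plus strand: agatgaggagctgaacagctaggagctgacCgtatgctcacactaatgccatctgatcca
Summing the 3 copies lessens the effect of how shared reads were split, and how such reads were assigned is not given. The summed level was 45.1, 18.5 and 22.5 CPM in LRWE, 97.6, 134 and 44.4 CPM in MC and 117, 81.5 and 133 CPM in NC. Only MC 3 lay in the LRWE range. Lyve1, a marker of the lymphatic vessels that make Ccl21, had 21.3, 5.93 and 9.47 CPM in LRWE, 42.4, 57.7 and 24.1 CPM in MC and 37.7, 33.8 and 44.3 CPM in NC, and was lower in every LRWE mouse than in every other mouse. Prox1, another lymphatic marker, had 11.1, 3.49 and 13.1 CPM in LRWE, 19.5, 8.59 and 9.30 CPM in MC and 2.89, 4.46 and 3.65 CPM in NC, and did not follow Ccl21a. The part of lymphatic vessel content in the Ccl21a result was not tested.

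Ccl11 (eotaxin, ENSMUSG00000020676, chromosome 11, 81948649 to 81953781, plus strand), which attracts eosinophils through Ccr3, had 1.19, 0.296 and 0.585 CPM in LRWE, 1.01, 4.80 and 2.04 CPM in MC and 6.32, 3.92 and 7.05 CPM in NC. LRWE averaged 0.689 ± 0.455 CPM and NC 5.76 ± 1.64 CPM (SD, n = 3 each), a log2 fold change of -3.06 ± 0.70, or 8.32-fold lower, with an adjusted p of 0.0291 (edgeR). MC mice lay between, with MC 1 in the LRWE range and MC 2 in the NC range. The call was lost without LRWE 2 (adjusted p 0.0600, edgeR), LRWE 3 (0.0944), NC 1 (0.0926), NC 2 (0.0711) or NC 3 (0.0958), with log2 fold changes between -3.30 and -2.70. Ccr3 had 3 counts, all in MC 2 (0.0418 CPM), and was not tested. Ccl24, a second eotaxin, had 0, 0 and 0.0650 CPM in LRWE, 0 CPM in every MC mouse and 0.279, 0.231 and 0 CPM in NC, 35 counts in all, and was not tested. The sum of the 7 eosinophil and mast cell markers in the table was 69.7, 27.1 and 43.2 CPM in LRWE, 79.8, 89.8 and 69.9 CPM in MC and 28.6, 26.8 and 33.4 CPM in NC. Most of it was Kit, with 61.5, 24.5 and 36.8 CPM in LRWE, 78.4, 83.4 and 64.7 CPM in MC and 26.7, 25.7 and 30.5 CPM in NC. Kit was the 1 gene of the list called higher in MC than in NC, where 2.84% of all tested genes were. The eosinophil genes Prg2 and Epx were each at 0 in at least 6 of the 9 libraries, and the part of the list in the Ccl11 values was not tested.

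Cxcl12 (ENSMUSG00000061353, chromosome 6, 117145496 to 117158328, plus strand), the stromal ligand of Cxcr4, had 23.4, 14.3 and 8.90 CPM in LRWE, 18.4, 42.0 and 24.2 CPM in MC and 57.3, 42.6 and 41.2 CPM in NC. LRWE averaged 15.5 ± 7.34 CPM and NC 47.0 ± 8.91 CPM (SD, n = 3 each), a log2 fold change of -1.60 ± 0.40, or 3.03-fold lower, with an adjusted p of 0.0378 (edgeR). No LRWE mouse came near an NC mouse, while MC 2 reached the NC range and MC 1 and MC 3 were near LRWE 1. The call was lost without LRWE 2 (adjusted p 0.0881, edgeR), LRWE 3 (0.0976), MC 3 (0.0581), NC 1 (0.125), NC 2 (0.0938) or NC 3 (0.0926), with log2 fold changes between -1.72 and -1.32. Fibroblast and stromal markers moved alongside, with sums of 593, 188 and 259 CPM in LRWE, 534, 1588 and 771 CPM in MC and 1539, 1107 and 1030 CPM in NC. Of the 8, 1 was called lower in LRWE than in NC, where 3.97% of all tested genes were. The part of stromal content in the Ccl11 and Cxcl12 results was not tested.

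Ccl17, a ligand of Ccr4, is named after its values were seen. It was at 0 in all 3 LRWE libraries and in MC 1 and MC 3, had 0.125 CPM in MC 2, and had 1.27, 0.477 and 0.587 CPM in NC. Against a floor of 3 counts over the LRWE group it was at least 44.9-fold lower in LRWE than in NC, with an adjusted p of 0.0594 (edgeR), and the floor covers counting error only. Ccl22, the other ligand of Ccr4, had 0.537, 0 and 0.130 CPM in LRWE, 0, 2.16 and 0.664 CPM in MC and 1.72, 0.938 and 1.98 CPM in NC. For both, every LRWE mouse lay below every NC mouse. The receptor Ccr4, with 49 counts in all and not tested, had 0.0651, 0.388 and 0.325 CPM in LRWE, 0, 0 and 0.0498 CPM in MC and 0.0174, 0 and 0 CPM in NC. Each LRWE mouse lay above every other mouse, though LRWE 1 held only 4 counts against 3 in MC 3. The sum of 8 dendritic cell markers, a cell type that makes both ligands, was 12.2, 5.41 and 7.68 CPM in LRWE, 12.1, 21.3 and 13.5 CPM in MC and 20.0, 23.8 and 30.9 CPM in NC. Of the 8, 2 were called lower in LRWE than in NC, where 3.97% of all tested genes were. The part of these cells in the Ccl17 and Ccl22 values was not tested.

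**Figure D4:**
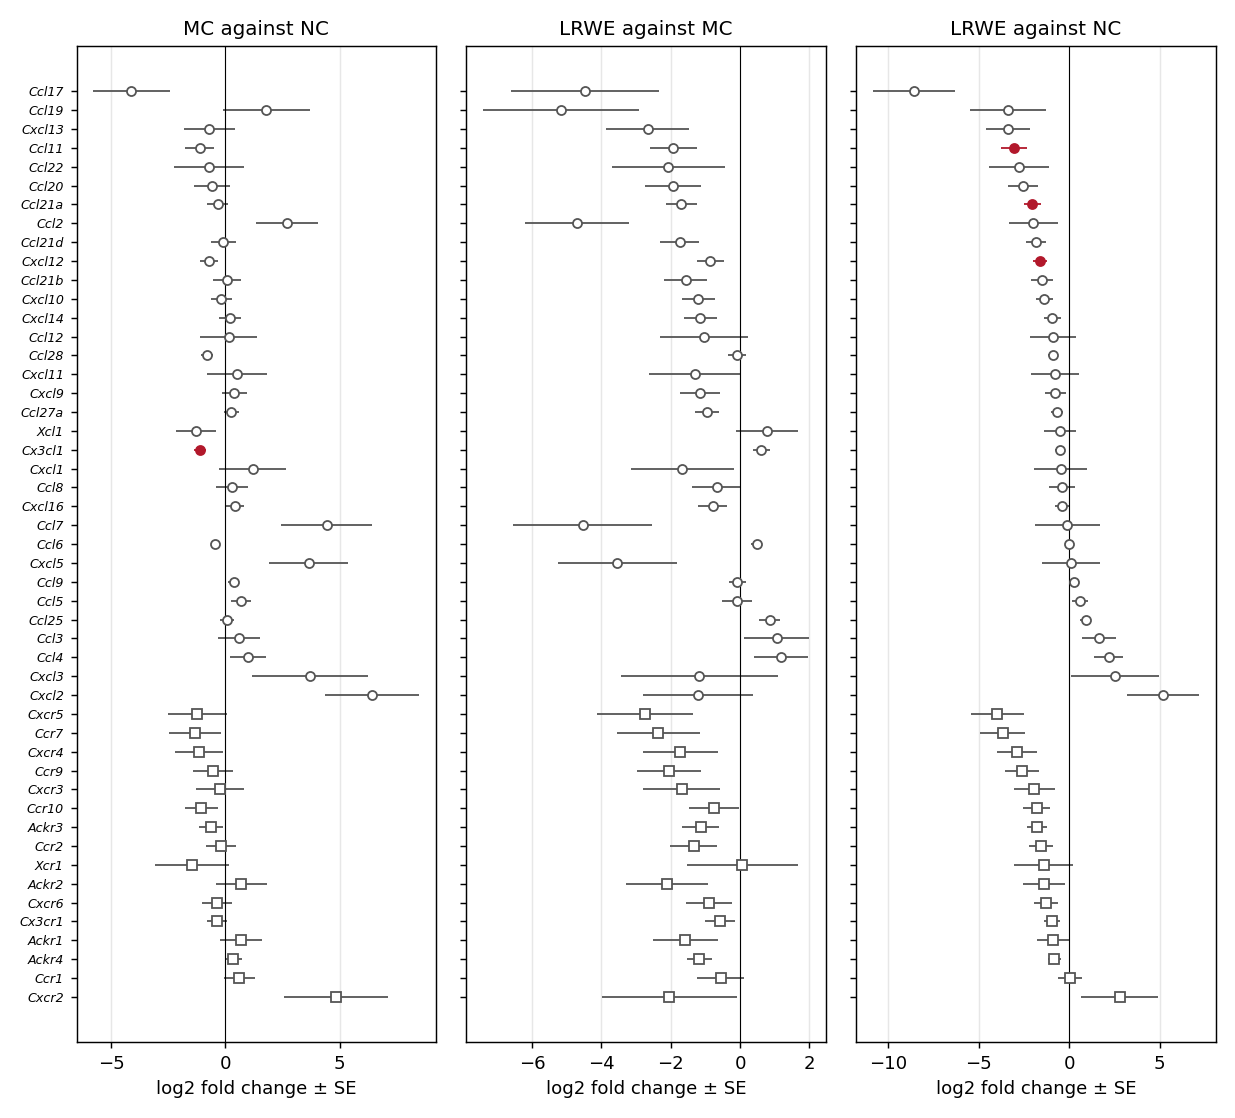
Log2 fold change ± SE (edgeR) of 49 tested members for MC against NC, LRWE against MC and LRWE against NC, with ligands as circles and receptors as squares, each ordered by the LRWE against NC value, and filled red symbols at an adjusted p under 0.05. Cx3cl1 is the red symbol for MC against NC, Ccl11, Ccl21a and Cxcl12 are those for LRWE against NC, and LRWE against MC has none. The horizontal scales differ between panels.

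For LRWE against MC, no member was called, and 0% of all tested genes were (0 of 21767). At an unadjusted p under 0.05, edgeR counted 15 of 50 members and 23.6% of all tested genes. At an adjusted p under 0.05, DESeq2 called 6 members among 1788 genes, which were 5.24% of the 34101 genes with a count. With quality weights, limma-voom called 7 members among 2901 genes, which were 13.3% of all 21767 tested genes. The fits fell mostly on the lower side, with 7 of 50 above zero and a median log2 fold change of -1.19, while over all tested genes 10504 of 21767 were above zero and the median was -0.032. This median for the members was -1.18 for ligands and -1.34 for receptors. All LRWE mice lay below all MC mice in 10 of 50 tested members and above them in 3 of 50, against 14.1% and 14.3% of all tested genes. The 3 above were Ccl25, Ccl6 and Cx3cl1, whose values are given above.

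The smallest adjusted p of this comparison was 0.164 (edgeR), shared by Ackr4, Ccl2, Ccl21a and Ccl21d. Ackr4, the scavenger of Ccl19, Ccl21 and Ccl25, had 13.0, 4.53 and 8.72 CPM in LRWE, 21.1, 22.0 and 16.2 CPM in MC and 12.2, 19.3 and 15.2 CPM in NC. Its log2 fold change was -1.18 ± 0.36, with every LRWE mouse below every MC mouse, and the gene overlaps Acad11 on the opposite strand. The values of the other genes of this set were -4.70 ± 1.50 for Ccl2, -1.69 ± 0.46 for Ccl21a and -1.74 ± 0.57 for Ccl21d. Without MC 2 they were -2.38 for Ccl2, -1.22 for Ccl21a, -1.56 for Ccl21d and -1.09 for Ackr4. An adjusted p above the threshold does not show that the extract group and the DSS group were alike.

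The LRWE and MC groups each held a library that was the highest of its group in most members. MC 2 was the highest of the 3 MC libraries in 34 of 50 tested members (68%), where it was so in 40.5% of all tested genes. LRWE 1 was the highest of the 3 LRWE libraries in 35 members (70%), against 37.7% of all tested genes. Over all 9 libraries the lowest was LRWE 2 in 19 members (38%) and LRWE 3 in 17 (34%), against 31.3% and 8.29% of all tested genes. Ties went to the first library in the order LRWE, MC, NC, for members and all tested genes alike. Cxcr2, for example, was at 0 in LRWE 2, LRWE 3, NC 2 and NC 3 and counted for LRWE 2. Ccl17, at 0 in all 3 LRWE libraries, counted among the 35 members highest in LRWE 1.

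The atypical receptors and the remaining homeostatic ligands were called in no comparison. Ackr3, which clears Cxcl12, had 3.50, 2.59 and 1.82 CPM in LRWE, 5.12, 10.3 and 1.93 CPM in MC and 9.66, 9.12 and 8.33 CPM in NC. Like Cxcl12, it was lower in every LRWE mouse than in every NC mouse, with a log2 fold change of -1.78 ± 0.54 (adjusted p 0.0702, edgeR). Ackr1 had 6.49, 0.129 and 2.55 CPM in LRWE, 9.06, 9.34 and 8.97 CPM in MC and 8.01, 3.46 and 5.59 CPM in NC, and overlaps Cadm3 on the same strand. Ackr2, the scavenger of inflammatory CC ligands on lymphatic cells, had 2.05, 0 and 0.650 CPM in LRWE, 3.63, 5.91 and 2.06 CPM in MC and 2.77, 1.34 and 3.03 CPM in NC. For both, every LRWE mouse lay below every MC mouse.

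Cxcl14 had 8.72, 2.55 and 3.75 CPM in LRWE, 11.8, 6.82 and 14.6 CPM in MC and 11.4, 7.32 and 10.1 CPM in NC, and LRWE 1 lay among the other groups. Cxcl16 had 23.2, 11.3 and 9.39 CPM in LRWE, 14.0, 28.8 and 33.1 CPM in MC and 23.5, 19.9 and 13.9 CPM in NC. Its receptor Cxcr6, on resident T cells, had 0.179, 0.369 and 0.861 CPM in LRWE, 0.814, 0.696 and 1.13 CPM in MC and 0.783, 1.37 and 1.29 CPM in NC. The groups overlapped in both genes.

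The members not yet given were Ccl8, Ccl9, Ccl12, Xcl1 and Xcr1 among those tested. Ccl9 had 7.55 to 14.2 CPM and Ccl8 0.309 to 4.61 CPM over the 9 libraries, while Ccl12, Xcl1 and Xcr1 stayed at or under 1.36 CPM, and none was called or held groups without overlap. Of the 10 members not tested, Ccl1 and Cxcl15 had no count in any library, and the other 8 (Ccl24, Ccl27b, Ccr3, Ccr4, Ccr6, Ccr8, Cxcl17 and Cxcr1) had between 3 and 58 counts over all 9 libraries. Cxcl17 had 0.0651, 0 and 0 CPM in LRWE, 0, 0.209 and 0.0332 CPM in MC and 0, 0 and 0.0952 CPM in NC. Of the 50-base stretches of Ccl27b transcripts, 61.4% also occur in Ccl27a.

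Members lie close together on few chromosomes, 14 on chromosome 11, 13 on 9, 10 on 5, 7 on 1 and 6 on 4 in the coordinates of the deposited table. On chromosome 11, Ccl2, Ccl7, Ccl11, Ccl12, Ccl8 and Ccl1 lie between 81926397 and 82070638. Within this stretch Ccl2 and Ccl7 were 13.0 and 31.4 times as high in MC 2 as in the mean of the other MC mice, Ccl11 3.14, Ccl8 2.23 and Ccl12 1.62 times, and Ccl1 had no count. On chromosome 5, Cxcl5, Cxcl3, Cxcl15, Cxcl1 and Cxcl2 lie between 90907219 and 91053797. The Cxcl9, Cxcl10 and Cxcl11 genes lie between 92469206 and 92513344 on the same chromosome and were lower in MC 2 than in the mean of the other MC mice, at 0.688, 0.628 and 0.160 times. In the Cxcl5 to Cxcl2 stretch, Cxcl1 was 25.3, Cxcl5 12.3, Cxcl3 4.19 and Cxcl2 2.13 times as high in MC 2 as in that mean. Cxcl15 had no count. Ligands of separate stretches of chromosome 5 therefore had opposite orders in the same mouse.

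Of 30 other genes of the chemokine pathway, chosen with earlier results known, 28 were tested. In MC, Gnai2, a G protein subunit that carries the receptor signal, Elmo1 and Prex1, which serve Rac activation and cell movement, were called higher than in NC, and Dpp4, a peptidase that cleaves chemokines, was called lower. In LRWE against NC, Gnai2, Gnb1, Elmo1, Prex1 and Pxn were higher and Pf4, a platelet chemokine, Rarres2, the ligand of Cmklr1, and Grk6, a receptor kinase, were lower. Of all tested genes, 2.84% were called higher and 3.53% lower for MC against NC. For LRWE against NC these shares were 6.04% and 3.97%. Prex1 had 36.6, 50.9 and 34.5 CPM in LRWE, 21.7, 20.0 and 41.1 CPM in MC and 6.39, 6.87 and 13.8 CPM in NC, a log2 fold change of 2.17 ± 0.39 for LRWE against NC (adjusted p 0.0127, edgeR) and 1.61 ± 0.38 for MC against NC (adjusted p 0.0411, edgeR). Dpp4 had 11.6, 15.4 and 23.9 CPM in LRWE, 12.8, 5.73 and 10.1 CPM in MC and 24.9, 31.0 and 32.2 CPM in NC, with -1.62 ± 0.35 for MC against NC (adjusted p 0.0289, edgeR). Rarres2 had 45.4, 34.2 and 28.7 CPM in LRWE, 55.5, 67.8 and 46.8 CPM in MC and 92.1, 85.6 and 77.9 CPM in NC, with -1.24 ± 0.20 for LRWE against NC (adjusted p 0.00972, edgeR). None of the 28 was called for LRWE against MC, where 0% of all tested genes were. The medians of the 28 log2 fold changes were -0.64 (LRWE over NC), -0.46 (LRWE over MC) and -0.17 (MC over NC). Over all tested genes they were -0.053, -0.032 and -0.0055.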

How the data were processed

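Poly(A) RNA of 9 mouse colons was sequenced, 3 mice per group, each library taken as a separate mouse. The deposited table gives counts and FPKM for 36256 genes. Per the file headers, the authors deposited whole-number counts (treated as estimated counts) and, in separate columns, FPKM values, which the authors normalized to transcript length and depth. Trimming with cutadapt 1.9, alignment tool HISAT2 2.0.4, StringTie 1.3.4d and edgeR are listed, per the submitters' processing notes, beside a human build that cannot belong to mouse identifiers. Settings and strand are not given in the sources used here. All 18 value columns were used.

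Counts were tested in edgeR 4.0.16 (R 4.3.3) with the quasi-likelihood test, TMM scaling, filterByExpr (21767 genes kept), 1 mean per group over 9 libraries and Benjamini-Hochberg adjustment over all tested genes. Calls used an adjusted p under 0.05. SE is the log2 fold change divided by the root of edgeR's F, with a median of 0.415 for MC against NC, and both SE and intervals (95%) are approximate. Totals of 59042063 to 65042857 counts set the depth, and reads are not independent molecules. A group at 0 was set at 3 counts over its 3 libraries.

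Alternatives used DESeq2 1.42.0, limma 3.58.1 (voom, and log2(FPKM + 1) or + 0.1), other scalings and filters, each replicate left out and replicate numbers as a block. Members and lists were chosen with earlier results of these data known. Values per library are given for called members, the 8 ligands and 6 receptors highest in FPKM and members of functional axes (48 in all, of which 1 is not reported here). Promoters are RefSeq GRCm38.p6. Drawings used Python 3.11.15 and matplotlib 3.10.9.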

Additional observations from a re-analysis of the deposited data

How the results depend on the processing

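Only 3 mice per group, low counts of most members and single mice limit these results. For MC against NC the number of members called was 1 over all mice, 2 with DESeq2, 8 with limma-voom, 2 with limma on log2(FPKM + 1) or log2(FPKM + 0.1), 3 with the 6 libraries compared, and 6 without MC 2 and LRWE 2 (chosen after seeing the data), and 0 to 2 with each mouse left out. For LRWE against MC it was 0, with 6 by DESeq2, 7 by limma-voom and 0 to 6 with each mouse left out (6 without LRWE 1). For LRWE against NC it was 3, with 2 by library totals, 16 by DESeq2, 20 by limma-voom, 6 by limma on either log2 FPKM scale, 8 with the 6 libraries compared, 5 without MC 2 and LRWE 2, and 0 to 9 with each mouse left out. Over all genes the calls across the alternatives were 459 to 6142 (2179 as reported) for LRWE against NC, 0 to 2901 (0) when set against MC, and 281 to 5205 (1386) for MC against NC. Between MC and NC, DESeq2 called 11% of all genes, limma-voom 23.9% and the fit of the 6 libraries 18.2%, where the main fit called 6.37%. Between LRWE and NC these shares were 13%, 28.2% and 11.7%, where the main fit called 10.0%. The larger counts of members under these settings therefore came with more calls among all genes. Scaling by library totals shifted the median of all genes to 0.14 (MC against NC), -0.24 (LRWE against MC) and -0.10 (LRWE against NC).

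The results whose sign turned were not called in the edgeR fit over all mice. Cxcl1 for MC against NC was -2.16 with limma-voom, -0.24 on log2(FPKM + 0.1), -1.98 without MC 2 and -1.99 without MC 2 and LRWE 2, against 1.20, and reached 1.77 with a mouse left out. With mice left out, the MC against NC value ran between -3.42 and 0.37 for Cxcl13, -2.37 and 0.44 for Cxcr4, and -3.86 and 0.68 for Cxcr5, each positive without NC 3. For LRWE against MC it ran between -3.24 and 0.039 for Cxcl13 (positive without MC 2) and between -3.28 and 0.079 for Cxcr5 (positive without MC 2 and LRWE 2), and Cxcl2 for LRWE against NC was -0.18 with limma-voom. The cause was not tested.

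Pairing by replicate number as a block left 0 members called in each of the 3 comparisons, with adjusted p (edgeR) of 0.104 for Cx3cl1, 0.0733 for Ccl21a, 0.0899 for Ccl11 and 0.0736 for Cxcl12. Deviations of same-numbered libraries correlated at -0.16 to 0.03, and those of differently numbered libraries at -0.11 to 0.24. With 3 mice per group these values cannot decide whether the numbers pair mice. The labels name no pairing.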
